A study of Mus musculus with 6 samples.

Results

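The miR-199 and miR-214 miRNAs are cut from hairpins that lie on the opposite strand within introns of the dynamin genes. On a 1-colour miRNA array, 5 probes carried a mouse name of miR-199a, miR-199b or miR-214, of 1118 mouse miRNA probes in all. They covered 6 mature names, because the 3p arms of miR-199a and miR-199b shared 1 probe, written here as miR-199a-3p/miR-199b-3p. The RNA came from exosomes that purchased mouse endothelial cells had shed into F-12K medium with 12% fetal bovine serum. High phosphate meant 48 h at 3.5 mM inorganic phosphate and normal phosphate 48 h at 0.9 mM, with 3 arrays each and with growth supplement, heparin and serum in both groups. No source used here states if vesicles were removed from the serum. Nor is it stated if replicate arrays are independent cultures, so the p-values rest on a spread between samples that may be technical.

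In the mouse, miR-199a and miR-214 are known from mesenchymal tissue. Mir199a-2 and Mir214 are made from Dnm3os, a non-coding transcript that Twist1 drives and that mouse skeletal growth needs. A miRNA guides silencing of messenger RNAs mainly through its seed, the bases 2 to 8 from its 5′ end. miR-214 is known to restrain bone formation in mice by repressing Atf4, and it has been described in exosomes of human endothelial cells. In rat heart muscle cells miR-199a-5p represses Hif1a, and miR-199a-3p is known to promote division of rodent heart muscle cells.

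The mature sequences show which probes can be told apart. They are those of RefSeq on GRCm38.p6, 5′ to 3′, with the seed in capitals, and 5 of the 6 names matched.
miR-199a-5p: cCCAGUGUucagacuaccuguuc
miR-199a-3p and miR-199b-3p: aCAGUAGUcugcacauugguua
miR-214-5p: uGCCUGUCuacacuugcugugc
miR-214-3p: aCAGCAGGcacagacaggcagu
The 3p sequence of 22 bases is the same for miR-199a and miR-199b, and 3 hairpins encode it, so its probe measured the sum of 3 genes. miR-199a-5p is encoded by 2 of them. No seed was shared between the 4 distinct sequences. miR-199a-3p and miR-214-3p begin with the same 4 bases and have 5 of 7 seed bases in common, but only 8 of 22 bases over their length.

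The genomic hairpins place the arms. Mir199a-2 (chr1:162217814-162217923, plus strand) and Mir214 (chr1:162223368-162223477, plus strand) both lie inside Dnm3os (chr1:162217623-162225550, plus strand), with 5444 bases between them. Dnm3os itself lies within Dnm3 (chr1:161982450-162478321), which runs on the minus strand. They are shown here with both arms in capitals, since this is the pair whose co-variation is described further on.
Mir199a-2: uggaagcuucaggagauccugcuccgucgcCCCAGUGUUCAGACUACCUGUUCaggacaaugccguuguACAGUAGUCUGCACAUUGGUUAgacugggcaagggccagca
Mir214: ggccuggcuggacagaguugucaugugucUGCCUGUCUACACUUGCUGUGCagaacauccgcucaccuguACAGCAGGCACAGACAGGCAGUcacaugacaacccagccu
Mir199a-1 (chr9:21496495-21496564, minus strand) lies within Dnm2 (chr9:21424908-21507759, plus strand). Mir199b (chr2:32318460-32318569, plus strand) lies within Dnm1 (chr2:32308471-32353349, minus strand). The stretch of the Mir199b hairpin most like miR-199a-5p, at chr2:32318485-32318507 on the plus strand, matches it in 22 of 23 bases, with the substitution C10U counted from 1 at the 5′ end of miR-199a-5p and the differing base in a capital.
Mir199b stretch: cccaguguuUagacuaccuguuc

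Signals are spot intensities in scanner units, foreground minus local background as deposited, averaged over 4 spots per probe. The array holds probes for 57 viral miRNAs that the mouse genome does not encode, and the 95th percentile of their signals served as the detection threshold on each array, at 1627 to 3233 units. A mouse probe was tested if it exceeded this threshold on at least 3 of the 6 arrays, which 129 did. Both miR-199a-3p/miR-199b-3p and miR-199a-5p were among them, each above the threshold on 4 arrays, 2 in high and 2 in normal phosphate. miR-199b-5p, miR-214-3p and miR-214-5p stayed under the threshold on all 6 arrays, so 2 of the 5 probes were tested. All 5 exceeded the brightest empty spot, at 3 to 9 units, on every array. The brightest negative control reached 689 to 1440 units, above the 3 untested probes on all arrays. The next brightest negative control, at 60.3 to 159 units, was exceeded by miR-214-3p on 6 arrays, by miR-199b-5p on 5 and by miR-214-5p on 4. The untested probes therefore gave a signal over empty spots but were not well above background by the viral probes. Log2 differences and arm ratios that use them describe the probes' signal, and are not measured fold changes of the miRNAs.

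The array labelled high phosphate replicate 1 and that labelled normal phosphate replicate 1 stood at opposite ends for several of the values that follow. Results that rest on them are also given without both, a setting chosen after seeing the data. Where high phosphate replicate 1 is lowest and normal phosphate replicate 1 highest, leaving them out narrows the spread and raises the difference by construction. On the Hy3 spots, high phosphate replicate 1 was the brightest high array (log2 9.03) and normal phosphate replicate 1 the dimmest normal array (9.37). The spike controls, in contrast, were dimmest on high phosphate replicate 1 and brightest on normal phosphate replicate 1. They averaged 9.67 ± 0.26 (log2, SD) on high and 10.33 ± 0.16 on normal phosphate arrays (n = 3 each, exact 2-sided permutation p = 0.1, the smallest that 3 against 3 arrays allow). The mean log2 level of the 129 tested probes was 12.53 ± 0.11 in high and 12.70 ± 0.07 in normal phosphate (SD, n = 3 each, exact permutation p = 0.1). High minus normal, the difference was -0.66 for the spike controls, -0.67 for the Hy3 spots and -0.17 for the tested probes. The controls were thus dimmer by more than the tested probes were. Labelling or array brightness, vesicle number and miRNA per vesicle cannot be told apart in such bulk RNA, and none was tested.

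miR-199a-3p/miR-199b-3p had the lowest and the highest of its 6 signals on those 2 arrays. The probe, which carries the names mmu-miR-199a-3p and mmu-miR-199b-3p, measured 669.5, 2229 and 2679 units in high phosphate, against 6302, 2553 and 2812 units in normal phosphate. By the mean of 4 spots, the other 4 arrays lay within 2229 to 2812 units, and the groups overlapped. The means were 1859 ± 1055 units in high and 3889 ± 2094 units in normal phosphate (SD, n = 3 each, exact permutation p = 0.2). Without both arrays numbered 1 the means were 2454 units in high and 2683 units in normal phosphate (n = 2 each). On high phosphate replicate 1 the signal was under that array's detection threshold of 2667 units and under its brightest negative control of 977.5 units. It was also under the threshold, of 3233 units, on normal phosphate replicate 3. The 4 spots of high phosphate replicate 1 read 905, 526, 590 and 657 units. Those of normal phosphate replicate 1 read 6630, 6351, 5971 and 6255 units, so on these 2 arrays all spots shared the value. On high phosphate replicate 3 they read 3466 and 3355 units in a lower-numbered block, and 1829 and 2067 units in a higher-numbered one. By the lower-numbered block alone the groups overlapped (exact permutation p = 0.4). By the higher-numbered block alone they did not, at 623.5, 1954 and 1948 units in high and 6113, 2416 and 2476 units in normal phosphate (exact permutation p = 0.1). Over all spots, 10.1% of the tested probes had no overlap of normalized levels.

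miR-199a-5p, the other arm of the same hairpins, had nearly level signals. The probe mmu-miR-199a-5p measured 2366, 2748 and 2461 units in high phosphate, against 2025, 2729 and 3298 units in normal phosphate. The high phosphate arrays lay inside the range of the normal ones. The means were 2525 ± 198.8 units in high and 2684 ± 638 units in normal phosphate (SD, n = 3 each, exact permutation p = 0.8). The spots of this probe agreed closely, with a median coefficient of variation of 4.36% over the arrays against 17.3% for miR-199a-3p/miR-199b-3p. The median over the 589 mouse probes with at least 50 units on every array was 12.8%.

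miR-214-3p, the arm of Mir214 known to repress Atf4 in mice, was low on both arrays numbered 1. The probe mmu-miR-214-3p measured 322.5, 624 and 629.8 units in high phosphate, against 161.8, 597.5 and 326.3 units in normal phosphate. The lowest value was a normal phosphate array and the groups overlapped. The means were 525 ± 176 units in high and 362 ± 220 units in normal phosphate (SD, n = 3 each, exact permutation p = 0.3). miR-214-5p, the opposite arm, measured 88.5, 167.3 and 130.5 units in high phosphate, against 59, 149.5 and 92.5 units in normal phosphate. Its dimmest 3 arrays were those of miR-214-3p, in the same order. The groups overlapped, with means of 129 ± 39.4 units in high and 100.3 ± 45.8 units in normal phosphate (SD, n = 3 each, exact permutation p = 0.5). Although dim, both probes were repeatable within an array, with median spot coefficients of variation of 6.81% for miR-214-3p and 4.72% for miR-214-5p.

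miR-199b-5p did not give a repeatable signal. Its 4 spots per array sit as a pair in a lower-numbered block and a pair in a higher-numbered block of the array, and the pairs disagreed. The lower-numbered pair averaged 349, 545.5 and 227 units in high phosphate, against 297.5, 473.5 and 28 units in normal phosphate. The 227 units, on high phosphate replicate 3, are the mean of spots at 10 and 444 units, which disagree within the pair. The higher-numbered pair averaged 30, 52.5 and 127.5 units in high phosphate, against 334.5, 109 and 107.5 units in normal phosphate. By the lower-numbered blocks the high phosphate mean was above the normal one (373.8 ± 160.7 against 266.3 ± 224.4 units, SD, n = 3 each, exact permutation p = 0.5). By the higher-numbered blocks it was below (70 ± 51.1 against 183.7 ± 130.6 units, SD, n = 3 each, exact permutation p = 0.3). The median spot coefficient of variation was 84.3%, and 99.7% of the 589 probes compared had a lower one. Over all 4 spots the means were 222 ± 67.0 units in high and 225 ± 137 units in normal phosphate (SD, n = 3 each, exact permutation p = 1). A value of this probe therefore depends on which spots are read, and its normalized values are given below for completeness only.

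**Figure D1:**
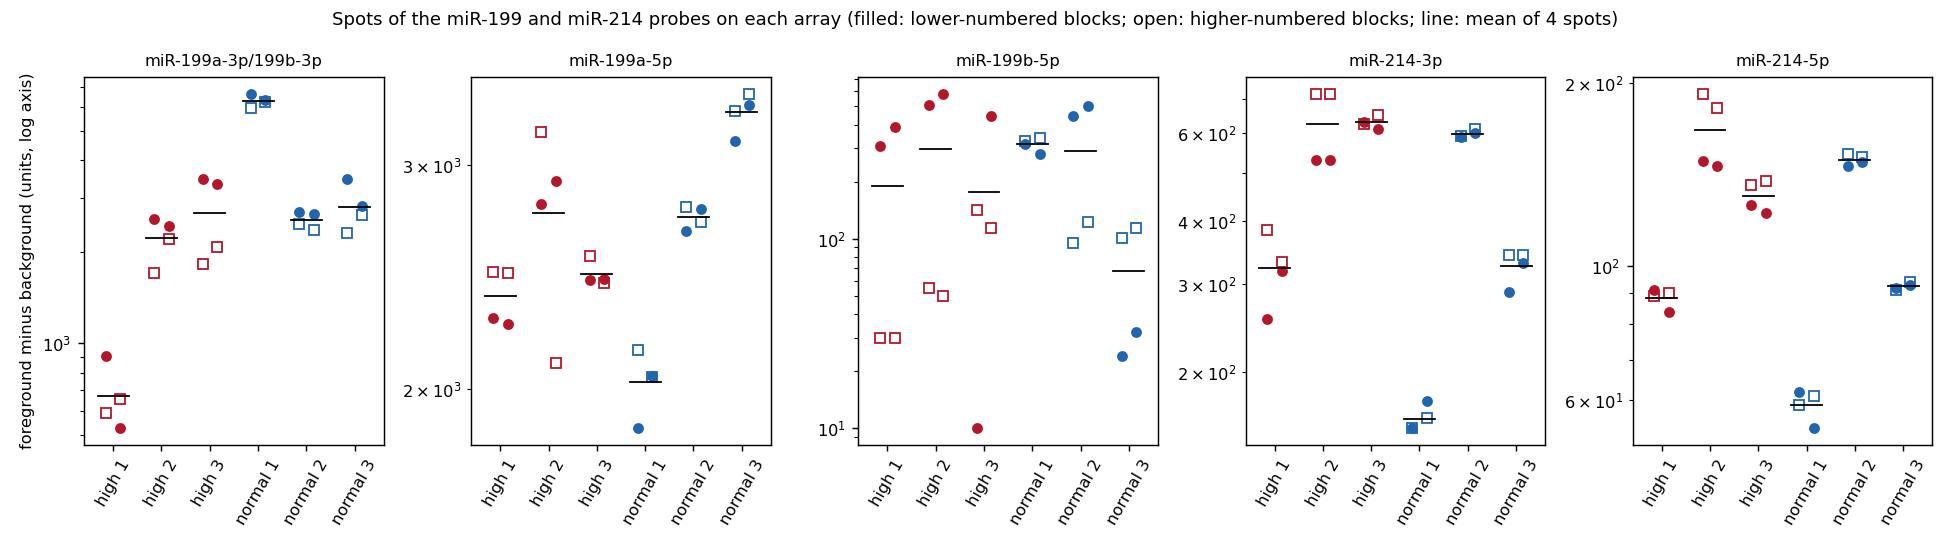
Signal of each of the 4 spots per probe (foreground minus background in scanner units, on a log axis that differs between panels) on the 3 high phosphate arrays (red) and the 3 normal phosphate arrays (blue). Filled circles are spots in lower-numbered blocks, open squares spots in higher-numbered blocks, and lines the mean of 4 spots. For miR-199a-3p/miR-199b-3p the spots of high 1 lie between 526 and 905 units and those of normal 1 between 5971 and 6630 units, while for miR-199b-5p the pairs of spots disagree on most arrays.

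For the comparison of the phosphate levels, spots were background-corrected, arrays were quantile normalized and values were taken to log2. The miR-199a-3p/miR-199b-3p level was 9.60, 11.13 and 11.52 in high phosphate, against 12.55, 11.25 and 11.38 in normal phosphate. Its log2 difference, high minus normal, was -0.98 (SE 0.55, 95% interval -2.27 to 0.32), a fold of 0.509 with an interval of 0.208 to 1.24, and limma's adjusted p over the 129 tested probes was 0.848. Without high phosphate replicate 1 the difference was -0.40, without normal phosphate replicate 1 it was -0.57, and without both it was 0.0091 (SE 0.23). With no scaling between arrays the 4 others gave -0.15. The arrays numbered 1 held the lowest and the highest level, so leaving both out had to raise the difference. The values show only how far -0.98 depends on them. Of these arrays, that of high phosphate was below detection for this probe.

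The miR-199a-5p level was 11.32, 11.46 and 11.33 in high phosphate, against 11.10, 11.35 and 11.66 in normal phosphate. Its log2 difference was 0.01 (SE 0.21, 95% interval -0.49 to 0.50), a fold of 1.00 with an interval of 0.712 to 1.42, and limma's adjusted p was 0.999. The sign of this difference turned under 8 alternatives. Neither of the 2 tested probes passed the threshold of 0.05, where 0% of the 129 tested probes did (limma, lowest adjusted p 0.453, 9 probes at an unadjusted p under 0.05). The groups did not overlap for 0 of the 5 members, against 10.1% of the tested probes.

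Fitted over all 1118 mouse probes with no filter, the 3 dim members also had differences within their error. The log2 difference was 0.49 (SE 0.44, 95% interval -0.64 to 1.62) for miR-214-3p, with a limma adjusted p of 0.789, and it was 0.13 without normal phosphate replicate 1 and 0.88 without normal phosphate replicate 2. It was 0.11 (SE 0.25, 95% interval -0.52 to 0.74) for miR-214-5p, with a limma adjusted p of 0.964, and leaving out each array gave -0.06 to 0.30. For miR-199b-5p it was -0.01 (SE 0.43, 95% interval -1.10 to 1.08), with a limma adjusted p of 0.998. In that fit 0% of the probes passed the threshold (63 at an unadjusted p under 0.05), and the groups did not overlap for 8.68% of them and for 0 of the 5 members.

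The choice of scaling shifts all probes together. The median difference of the tested probes was -0.02 after quantile normalization, -0.22 with no scaling and 0.45 when arrays were scaled to the spike controls. Relative to that median, miR-199a-3p/miR-199b-3p differed by -0.96 after quantile normalization, by -0.93 without scaling and by -0.93 with spike scaling. For miR-199a-5p the same quantity was 0.02, 0.14 and 0.14. For miR-214-3p it was 0.51, 0.73 and 0.73. For miR-214-5p it was 0.13, 0.33 and 0.33, and for miR-199b-5p 0.0037, 0.24 and 0.24. Scaling by 1 factor per array moves every probe alike, so the last 2 values of each probe are equal by construction. Only quantile normalization and the deposited values could differ, and from the deposited values the quantity was -0.95 for miR-199a-3p/miR-199b-3p, 0.16 for miR-199a-5p, 0.88 for miR-214-3p, 0.61 for miR-214-5p and 0.21 for miR-199b-5p. With spike scaling the miR-199a-5p difference itself was 0.59.

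**Figure D2:**
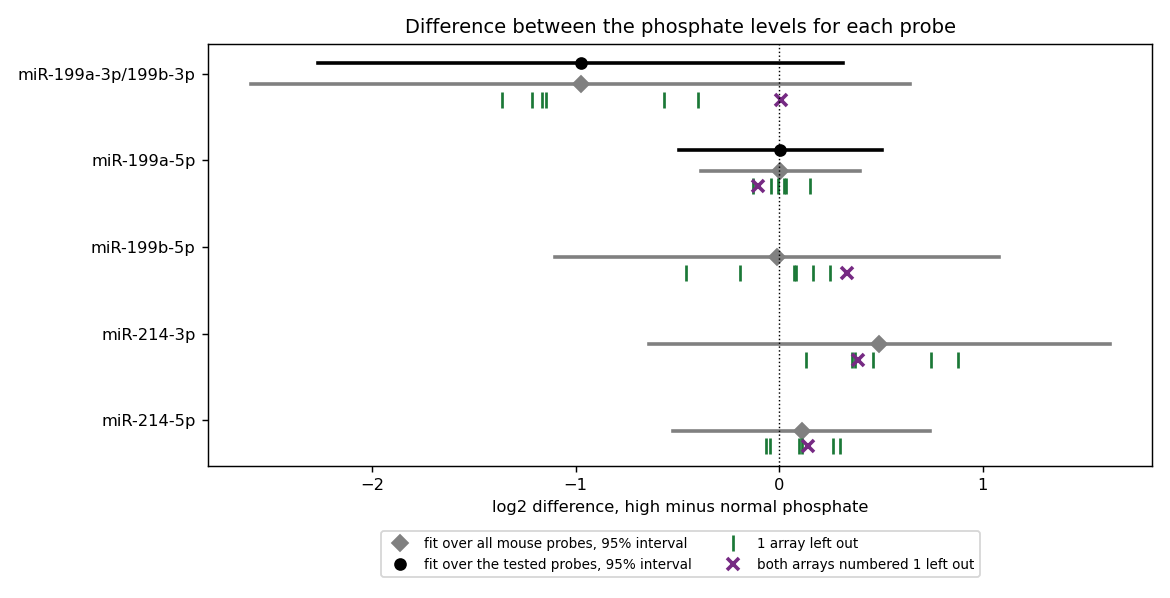
Log2 difference, high minus normal phosphate, of each probe (horizontal axis) with its 95% interval from limma over the 129 tested probes (black) or over all 1118 mouse probes (grey). Green ticks leave out 1 array each and purple crosses leave out both arrays numbered 1. All intervals include 0. For miR-199a-3p/miR-199b-3p the estimate is -0.98 with all arrays, -1.36 to -0.40 with 1 array left out and 0.0091 without both arrays numbered 1.

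The authors' deposited table, which compares the same arrays on its own normalized intensities, gave miR-199a-3p/miR-199b-3p a fold of 0.476 (high over normal) with a p of 0.231 and a false discovery rate of 0.794. For miR-199a-5p the authors' deposited table gave a fold of 0.954 with a false discovery rate of 0.898. In the authors' deposited table the other 3 probes had false discovery rates between 0.794 and 0.901.

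The members varied between arrays to very different degrees. Over the 6 arrays the SD of the normalized log2 level was 0.95 for miR-199a-3p/miR-199b-3p, and 3 of the 129 tested probes had a larger one. For miR-199a-5p it was 0.18, and 110 tested probes had a larger one. The median over the tested probes was 0.34. The SD was 0.61 for miR-214-3p, 0.53 for miR-199b-5p and 0.31 for miR-214-5p. Without both arrays numbered 1 the SD of miR-199a-3p/miR-199b-3p was 0.17, with 94 tested probes above it, and that of miR-199a-5p was 0.15, with 101 above it. Those arrays held the lowest and the highest level of the 3p probe, so its SD had to shrink without them.

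**Figure D3:**
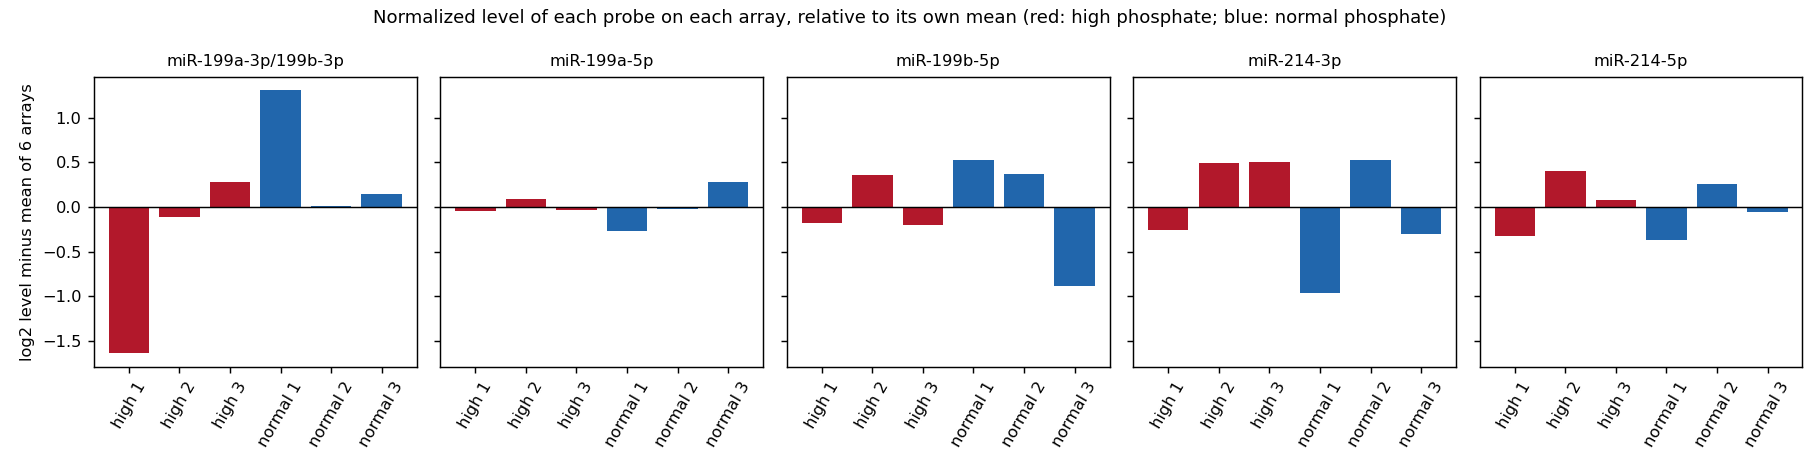
Normalized log2 level of each probe on each array minus that probe's mean over the 6 arrays, for high phosphate (red) and normal phosphate (blue). The bars of miR-199a-3p/miR-199b-3p are longest on high 1 and normal 1, those of miR-199a-5p are short on every array, and both miR-214 arms are below their mean on both arrays numbered 1 and above it on both arrays numbered 2.

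Each hairpin yields a 5p and a 3p arm, and the log2 ratio of the 3p to the 5p signal follows their balance from array to array. Probes differ in brightness, so the height of a ratio says nothing of the molar ratio, and the ratio is compared only between arrays. The miR-199a 3p signal is the shared probe, which also measures the 3p arm of Mir199b. The miR-199a-5p signal was under the detection threshold on both arrays numbered 1 (2366 against 2667 units in high, 2025 against 2028 units in normal phosphate). For miR-199a the ratio was -1.72, -0.33 and 0.19 in high phosphate, against 1.45, -0.09 and -0.27 in normal phosphate. The arrays numbered 1 were again the extremes, and the groups overlapped. The means were -0.62 ± 0.99 in high and 0.36 ± 0.95 in normal phosphate (SD, n = 3 each), a difference of -0.98 (exact permutation p = 0.4, adjusted over the 3 ratios 0.4). That difference was -0.43 without high phosphate replicate 1, -0.44 without normal phosphate replicate 1 and 0.11 without both. Leaving out the lowest and the highest ratio raises the difference by construction.

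For miR-214 the ratio was 1.48, 1.51 and 1.85 in high phosphate, against 0.83, 1.69 and 1.17 in normal phosphate. The means were 1.61 ± 0.20 in high and 1.23 ± 0.43 in normal phosphate (SD, n = 3 each), a difference of 0.38 (exact permutation p = 0.3, adjusted 0.4), with overlapping groups. The miR-214 ratio spanned 1.02 over the 6 arrays, against 3.17 for miR-199a, and without both arrays numbered 1 the spans were 0.68 and 0.52. The difference in the miR-214 ratio was then 0.24. For miR-199b, whose 3p signal is the shared probe and whose 5p signal is the unrepeatable one, the means were 2.65 ± 0.97 in high and 3.61 ± 0.73 in normal phosphate (SD, n = 3 each, exact permutation p = 0.2, adjusted 0.4). No ratio differed between the phosphate levels beyond its spread.

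**Figure D4:**
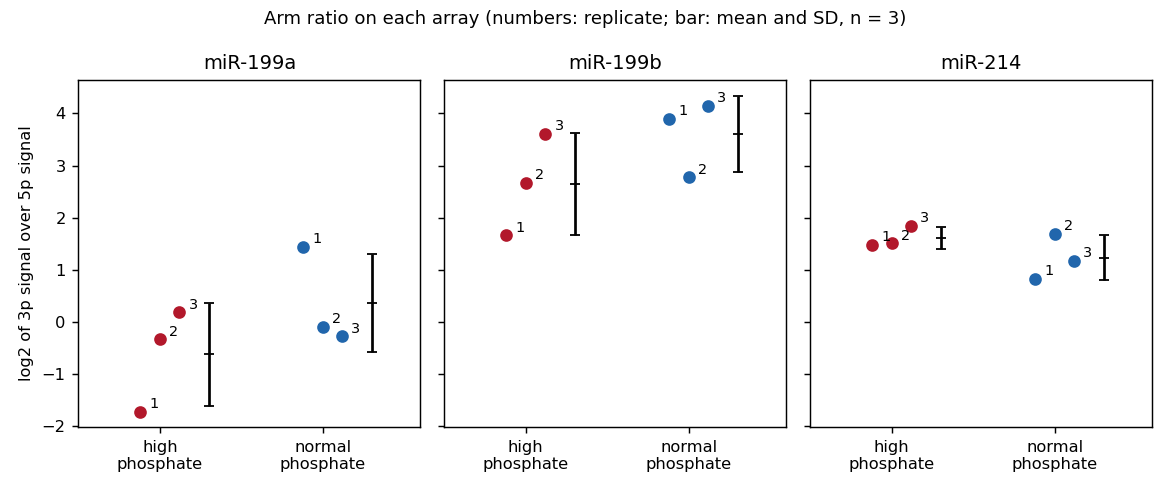
Log2 ratio of the 3p to the 5p signal of miR-199a, miR-199b and miR-214 on each array, with the replicate number beside each point and the mean and SD of 3 arrays as bars. High phosphate (red) is left of normal phosphate (blue). The miR-199a points run between -1.72 and 1.45, the miR-214 points between 0.83 and 1.85, and the groups overlap in every panel.

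Whether miR-199a and miR-214, which share the Dnm3os transcript, moved together was read from their normalized levels over the 6 arrays. The 5 probes form 10 pairs, and adjusted p-values are Benjamini-Hochberg values over those. All points share labelling and array brightness, so correlations are not free of them. miR-199a-5p and miR-214-3p had Pearson's r = 0.36 (exact permutation p = 0.458, adjusted 0.963) and Spearman's rho = 0.26 (exact permutation p = 0.658). Without the 2 arrays farthest from the median of miR-199a-5p, r was 0.43, but without both arrays numbered 1 it was -0.93. Scaled to the spike controls or to the Hy3 spots, r of this pair was 0.83, where the median over all pairs of tested probes also stood higher, at 0.54 with spike and 0.41 with Hy3 scaling. The pair miR-199a-3p/miR-199b-3p and miR-214-3p had r = -0.27 (exact permutation p = 0.678, adjusted 0.968) and rho = -0.31 (exact permutation p = 0.564), and r was -0.23 without the 2 farthest arrays. Leaving out normal phosphate replicate 1 alone turned it to 0.54. Each of these relations thus took both signs when different arrays were left out.

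The relations of miR-199a with miR-214-5p were no firmer. miR-199a-5p and miR-214-5p had r = 0.46 (exact permutation p = 0.369, adjusted 0.963) and rho = 0.66 (exact permutation p = 0.175), with r = 0.74 without the 2 farthest arrays and -0.47 without both arrays numbered 1. Under spike scaling r was 0.82 and under Hy3 scaling 0.78. For miR-199a-3p/miR-199b-3p and miR-214-5p r was 0.01 (exact permutation p = 0.989, adjusted 0.989) and rho was -0.37 (exact permutation p = 0.497), with r = -0.81 without the 2 farthest arrays. For the arms of miR-199a, r was -0.29 (exact permutation p = 0.571, adjusted 0.963), rho = -0.26 (exact permutation p = 0.658) and r = -0.08 without the 2 farthest arrays.

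The arms of miR-214 had the highest r of the 10 pairs. miR-214-3p and miR-214-5p had r = 0.88 (exact permutation p = 0.0306, adjusted over the 10 pairs 0.306) and rho = 0.77 (exact permutation p = 0.103), and r was 0.90 without the 2 farthest arrays. With group means removed r was 0.90, and leaving out each array in turn gave 0.83 to 0.92. The relation did not pass the adjustment. For comparison, the median r over the 8256 pairs of tested probes was 0.00, with quartiles of -0.38 and 0.39. Those probes all exceeded the detection threshold on at least 3 arrays, whereas the miR-214 arms did so on 0, so the sets differ in brightness. The r of -0.74 of miR-199b-5p with miR-199a-5p (exact permutation p = 0.118, adjusted 0.590, rho = -0.54 with an exact permutation p of 0.297) turned to 0.66 without the 2 farthest arrays.

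**Figure D5:**
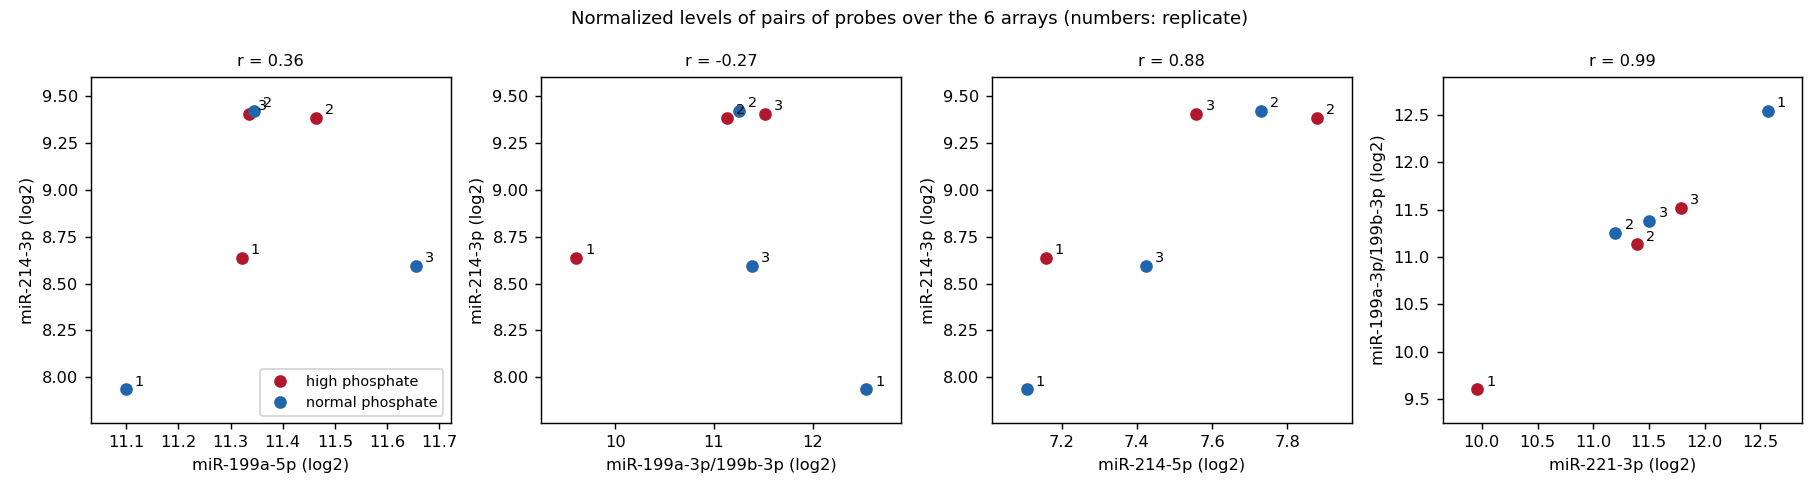
Normalized log2 levels of 4 pairs of probes on the 6 arrays, high phosphate in red and normal phosphate in blue, with replicate numbers. The panels show miR-214-3p against miR-199a-5p (r = 0.36), miR-199a-3p/miR-199b-3p (r = -0.27) and miR-214-5p (r = 0.88), and miR-199a-3p/miR-199b-3p against miR-221-3p (r = 0.99), where both arrays numbered 1 lie at the ends.

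The 128 other tested probes were ranked by the correlation of their level with miR-199a-3p/miR-199b-3p, as a description over 6 arrays. The 3 most alike were miR-221-3p, miR-26b-5p and miR-126a-3p, the last an endothelial miRNA encoded within Egfl7. miR-221-3p had r = 0.99 and rho = 0.94, and r was 0.80 without the 2 farthest arrays. It measured 922.8, 2502 and 3053 units in high phosphate, against 6321, 2501 and 2883 units in normal phosphate. Those values followed those of miR-199a-3p/miR-199b-3p array by array, and the log2 difference of miR-221-3p was -0.71 (SE 0.54). miR-26b-5p had r = 0.98 and rho = 0.94, with r = 0.66 without the 2 farthest arrays. miR-126a-3p had r = 0.96 and rho = 0.83, with r = 0.47 without those arrays and 0.05 under spike scaling. Their sequences, from RefSeq with the seed in capitals, show how far they share bases with miR-199a-3p.
miR-221-3p: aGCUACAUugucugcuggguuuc
miR-26b-5p: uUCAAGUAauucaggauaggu
miR-126a-3p: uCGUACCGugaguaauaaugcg
None has the seed of miR-199a-3p. The longest run shared with miR-199a-3p was 6 bases for miR-221-3p, which shares another run of that length with it. Of the 110 tested probes with a matched sequence, miR-221-3p included, 8.2% had a run at least as long. The longest run was 4 bases for miR-26b-5p and for miR-126a-3p, and 81.8% of the same 110 probes had a run at least as long. Among the 128 probes, 8 had r of at least 0.9 and 2 had r of at most -0.9, and the median was -0.07. At the opposite end were miR-183-5p (r = -0.95), miR-22-5p (r = -0.94) and miR-3086-3p (r = -0.87). The sign for miR-183-5p turned under median scaling (0.38), and that for miR-3086-3p turned without the 2 farthest arrays (0.80).

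Markers of the parent cells and of other cell types give the setting of these signals. Both arms of the endothelial miR-126a were above the threshold on all 6 arrays. miR-126a-3p measured 5474 ± 774 units in high and 8210 ± 1597 units in normal phosphate (SD, n = 3 each). miR-126a-5p measured 8607 ± 2622 units in high and 8987 ± 2094 units in normal phosphate (SD, n = 3 each). Their log2 differences were of opposite sign, at -0.30 and 0.17. The 2 arms also differed in r with miR-199a-3p/miR-199b-3p, at 0.96 for miR-126a-3p and -0.14 for miR-126a-5p. Of 11 probes for other mesenchymal and fibrosis miRNAs, 4 were tested and 0 passed the threshold, with 2 lower, 2 higher and a median log2 difference of -0.06. These were miR-143-3p (-0.17), miR-21a-5p (0.36), miR-29a-3p (-0.26) and miR-10b-5p (0.04). Over all 129 tested probes the median was -0.02, with 67 lower and 62 higher. The summed signal of the 11 probes was 80981 to 111654 units in high and 100947 to 138042 units in normal phosphate.

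Probes of miRNAs that circulate in serum or are known from other cells also gave signal. All 3 red cell probes were tested, all with a lower mean level in high phosphate (median log2 difference -0.08), with summed signals of 37726 to 53541 units in high and 50024 to 66834 units in normal phosphate. The liver miR-122-5p measured 8517 to 14182 units in high and 12880 to 24575 units in normal phosphate. Of 3 striated muscle probes 2 were tested, both with a lower mean level in high phosphate, and the sums were 30395 to 48327 units in high and 44873 to 57961 units in normal phosphate. The striated muscle probes differed in r with the miR-199 3p probe, at 0.48 for miR-206-3p and 0.16 for the untested miR-133a-3p. It was highest for miR-1a-3p (r = 0.95 over 6 arrays, named after its values were seen). miR-1a-3p measured 7172, 10301 and 8721 units in high phosphate, against 23625, 14505 and 15350 units in normal phosphate. Its groups did not overlap, as for 10.1% of the tested probes. Its log2 difference was -0.74 (SE 0.33, limma adjusted p 0.698). Of 4 leukocyte and platelet probes 1 was tested, with sums of 4088 to 5915 units in high and 4676 to 7615 units in normal phosphate. All list sums are signals before scaling, from arrays that were dimmer in high phosphate for the controls and the tested probes. The exact permutation p of the sums was 0.2 to 0.4. In each list 0 probes passed the threshold (limma) and no defining marker was at 0. The part of these sources in the miR-199 and miR-214 signals was not tested.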

How the data were processed

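Per the labels' protocols, RNA from exosomes isolated by differential centrifugation was extracted with TRIzol, column-purified and labelled with the dye Hy3. Per the file headers, the authors deposited intensity values of 15840 spots, with and without local background subtracted. They also deposited normalized intensity values, found here to equal the median of a probe's spots over 1 factor per array (319 to 344.5 units). Their table of the comparison holds a ratio, test over control, with its p-value and false discovery rate, as deposited. The sources used here name no scanner or image software. Another 18 columns of values per sample were not used.

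Spots were corrected by normexp with an offset of 50 (limma 3.58.1, R 4.3.3), those of a probe were averaged, and arrays were quantile normalized over mouse and viral miRNA probes before log2. Correlations and arm ratios used these levels. The tested probes exceeded the 95th percentile of the viral probes on at least 3 arrays and entered limma (lmFit, eBayes, 2-sided) with Benjamini-Hochberg adjustment over all of them at 0.05. The fit was tested on simulated data. Single values were compared with exact permutation tests. Precision is limited by the number of arrays. The members, marker lists and tests were chosen with earlier results of these data known. All members are named, together with the 3 tested probes most like and most unlike miR-199a-3p/miR-199b-3p and the marker probes. Alternatives covered background correction, scaling, deposited values, spot averaging, filters, variance model, array weights, the replicate block and leaving out arrays. Names are those of the array design, and sequences and positions are from RefSeq GRCm38.p6.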

Additional observations from a re-analysis of the deposited data

How the results depend on the processing

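The count of probes past the threshold stayed at 0 under 19 of 20 alternatives. Scaling to the Hy3 spots gave 7 (lowest adjusted p 0.0286 by limma), none of them a miR-199 or miR-214 probe, and leaving out each array gave 0. The miR-199a-3p/miR-199b-3p difference of -0.98 was -1.36 to -0.40 when each array was left out, and -0.48 with spike and -0.47 with Hy3 scaling. It turned to 0.0091 without both arrays numbered 1. The miR-199a-5p difference of 0.01 became -0.039 with median scaling, -0.073 without scaling, -0.050 from the deposited normalized values, -0.094 with array weights and -0.10 without both arrays numbered 1. Leaving out each array gave -0.13 to 0.15. The replicate numbers did not pair the arrays, with correlations of same-numbered deviations of 0.22, 0.03 and -0.18. With the replicate block 0 probes passed and the miR-199a-3p/miR-199b-3p difference was -0.98 (SE 0.60, limma adjusted p 0.785).

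The correlation of miR-199a-3p/miR-199b-3p with miR-199a-5p turned to 0.13 with median scaling, and leaving out each array gave -0.76 to 0.39. With miR-214-3p that range was -0.85 to 0.54. With miR-214-5p (0.01) it was -0.91 to 0.68, with -0.10 under median scaling, -0.12 without scaling, -0.53 under spike and -0.044 under Hy3 scaling, -0.29 from the deposited values and -0.81 without both arrays numbered 1. The correlation of miR-199a-5p with miR-214-3p ran between -0.45 and 0.87 when each array was left out and was -0.93 without both numbered 1. With miR-214-5p it was 0.06 to 0.81, and -0.47 without both. The miR-199a arm difference of -0.98 was -1.39 to -0.43 when each array was left out and turned to 0.11 without both arrays numbered 1. The miR-199b and miR-214 arm differences kept their direction under all 14 alternatives. A factor per array cancels in an arm ratio. Values without scaling and with median, spike or Hy3 scaling were thus equal by construction, at -1.16 for miR-199b and 0.40 for miR-214. The miR-199b ratio also rests on the unrepeatable 5p probe. For the miR-214 arms r stayed at 0.74 to 0.98 under 15 alternatives. It was 0.98 under spike and Hy3 scaling, where the median over pairs of tested probes was 0.54 and 0.41. It was 0.74 without both arrays numbered 1. The miR-199b-5p intensity difference of -3.08 units turned to 107.5 units from the lower-numbered blocks alone and to 58.6 units without both arrays numbered 1. The causes were not tested. Signal over background limits miR-199b-5p, miR-214-3p and miR-214-5p, which no array put above the viral probes.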
